A study of Mus musculus with 9 samples.

Results

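Chemokines are small secreted proteins, and here they were examined together with their receptors in the gastrocnemius of newborn mice. The genes were chosen by their symbols: Ccl, Cxcl, Ccr, Cxcr or Ackr followed by a number, together with Cx3cl1, Cx3cr1, Xcl1, Xcr1 and Pf4. Of the 55471 Ensembl genes in the deposited count table, 61 met this rule, namely 39 ligands, 18 receptors and 4 atypical receptors. The symbols alone chose the members, but the gene group was proposed with earlier results of these data known, so the levels below are a description. The muscle came from 5 Shank3Δ11(-/-) mice (KO1 to KO5), which lack exon 11 of Shank3 on both alleles, and from 4 Shank3(+/+) mice (WT1 to WT4). The labels give the strain of all mice as C57BL/6, and the methods of the study name C57BL/6JRj for the breeding of the KO mice. The mice were 0 to 1 days old, and the total RNA of each mouse gave 1 library. The deletion is present in every cell of the animal, so these libraries do not tell which cell type a difference comes from. The main comparison left out KO2 and KO4, as the authors did, and set KO1, KO3 and KO5 against the 4 WT mice. All 9 mice are given beside it. The authors' reason was too few reads, a shortfall that the deposited counts given below do not show.

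Chemokines bind seven-transmembrane receptors coupled to inhibitory G proteins and guide the migration of leukocytes, endothelial cells and progenitor cells along gradients. The atypical receptors bind chemokines without classical G protein signalling and take them up or carry them across cells, which shapes the gradients. In muscle, Cxcl12 and its receptor Cxcr4 are known for the migration of muscle precursors during development, while resident macrophages, vessels and connective tissue are known sources of many other chemokines. Interferons and NF-κB are the best known inducers of inflammatory chemokine genes.

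The mouse chemokine genes lie in clusters, which the choice by symbol did not use. Of the ligands, 12 lay on chromosome 11, 12 on chromosome 5 and 5 on chromosome 4, and of the receptors 11 lay on chromosome 9. RefSeq promoter windows (build GRCm38.p6) could be matched for 46 of the 61 members, in 53 windows of the 250 bases before a RefSeq start. For some members, among them Ccl21b and Ackr1, and for some windows of Ccl27b, these starts differ from those of the annotation used for the counts, while for the 4 members printed below they are the same. These were searched on either strand for the κB motif, the interferon-stimulated response element GAAANNGAAA and the interferon-gamma-activated site TTCNNNGAA. The κB motif was found in 9 of the 53 windows (17.0%), against 3.90% of the 32851 windows of this length in the table. The interferon-stimulated element was in 3 windows (5.66%), against 2.98% of all windows, and the interferon-gamma site in 3 (5.66%), against 7.02%. A match is a description of the letters and not a binding site, and no binding was measured. The 4 windows below are those of Cxcl12, the member with the most counts, of Cxcl9 and Cxcl10, neighbouring interferon-inducible genes with the largest ratios between the highest and the lowest mouse among the 32 members that passed the filter on low counts, and of Ccl9, whose level separated the genotypes in the main comparison. They are written 5′ to 3′ on the strand of the gene, with capitals for the motifs found.
Cxcl12 promoter: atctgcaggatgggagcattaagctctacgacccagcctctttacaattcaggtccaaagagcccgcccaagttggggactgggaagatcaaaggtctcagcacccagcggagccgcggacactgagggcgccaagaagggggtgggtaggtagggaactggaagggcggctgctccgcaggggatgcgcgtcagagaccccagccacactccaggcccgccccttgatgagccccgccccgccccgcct
Cxcl9 promoter: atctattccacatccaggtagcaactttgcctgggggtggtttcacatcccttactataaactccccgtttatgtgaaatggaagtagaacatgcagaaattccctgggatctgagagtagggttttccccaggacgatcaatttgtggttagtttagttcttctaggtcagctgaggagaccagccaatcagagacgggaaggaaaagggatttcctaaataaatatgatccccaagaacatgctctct
Cxcl10 promoter: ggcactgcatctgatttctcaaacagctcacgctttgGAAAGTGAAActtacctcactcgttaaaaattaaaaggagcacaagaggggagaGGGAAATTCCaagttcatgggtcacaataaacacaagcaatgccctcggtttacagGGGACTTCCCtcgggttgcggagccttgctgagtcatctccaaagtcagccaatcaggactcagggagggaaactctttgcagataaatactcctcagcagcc
Ccl9 promoter: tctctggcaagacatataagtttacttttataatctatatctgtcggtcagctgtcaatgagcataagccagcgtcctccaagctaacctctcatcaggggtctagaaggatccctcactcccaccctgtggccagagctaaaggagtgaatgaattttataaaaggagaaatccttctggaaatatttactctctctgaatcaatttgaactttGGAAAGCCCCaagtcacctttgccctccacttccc

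The Cxcl12 window (chr6:117168285-117168534, plus strand) and the Cxcl9 window (chr5:92328080-92328329, minus strand) held none of the motifs searched, which says only that these letters are not in them. The Cxcl10 window (chr5:92348890-92349139, minus strand) held an interferon-stimulated element from 213 to 204 bases before the gene start and κB matches from 159 to 150 and from 103 to 94 bases before it. The Ccl9 window (chr11:83578637-83578886, minus strand) held a κB match from 35 to 26 bases before the start. The other windows with a κB match were those of Cxcl1, Cxcl2, Cxcl3, Ccl20, Ccr3, Ccr6 and Ackr2.

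Library totals ran from 26444372 counts in KO5, which the authors kept, to 40471957 in KO4, which they excluded. The other excluded mouse, KO2, lay above KO5 at 28211941 counts. These totals therefore conflict with too few reads as the reason for leaving out KO2 and KO4, and the cause of the conflict was not tested. The 61 genes together took 0.0249% to 0.0303% of the counts of a mouse. The share of mitochondrial counts was 3.81% to 7.88%, highest in KO4. Xist, a gene of the inactive X chromosome, ranged from 621 to 927 CPM in WT3, WT4, KO3 and KO5 and was at most 0.220 CPM in KO1, KO2, WT1 and WT2, and 3.21 CPM in KO4, where CPM is the count scaled to library size with TMM factors. The fibre genes listed as muscle markers summed to 54956 to 62925 CPM, and the lowest of the 8, Tnnc2, averaged 2014 CPM. Shank3 was at 29.4 to 34.0 CPM in KO1, KO3 and KO5 and at 32.7 to 38.6 CPM in WT, but a count over the whole gene does not check the deletion of exon 11. KO5 stood apart in adipocyte markers (1148 CPM in sum, against 185 to 400 CPM in the other 8 mice) and in Schwann cell markers (416 CPM against 103 to 207 CPM).

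Newborn gastrocnemius expressed a limited part of the family. Of the 61 genes, 57 had at least 1 count, 39 had counts in every mouse, and 23 reached a mean of 1 CPM over the 9 mice. These 23 were 15 of 39 ligands, 4 of 18 receptors and all 4 atypical receptors. A further 18 genes lay between 0.1 and 1 CPM, 16 lay below 0.1 CPM, and Ccl26, Cxcl3, Xcl1 and Ccr6 had 0 counts. A count of 0 over the 9 mice allows up to 0.0105 CPM (3 counts, counting error only). As counts, not corrected for length, the ligands summed to 225.6 CPM on average, the receptors to 26.1 CPM and the atypical receptors to 24.2 CPM. Cxcl12 alone held 49.3% of all counts on the family and Pf4 10.6%.

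For the order of levels, genes were compared per exon length, as RPKM (CPM per kilobase of exon). On this scale Pf4 was highest at 40.6 ± 8.04 RPKM (SD, n = 9), above Cxcl12 at 16.7 ± 0.878 and Cxcl14 at 6.92 ± 3.06 RPKM. Ackr3 at 4.46 ± 1.05 and Cxcr4 at 4.41 ± 0.748 RPKM followed, and they did not differ beyond their spread. Cxcl9 (3.05 ± 1.70), Ccl11 (2.92 ± 1.48), Ccl12 (2.77 ± 1.37), Ccl21b (2.46 ± 1.36) and Ccl21a (2.18 ± 1.08 RPKM) came next, each within the spread of its neighbours. In all, 21 genes reached 1 RPKM.

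**Figure D1:**
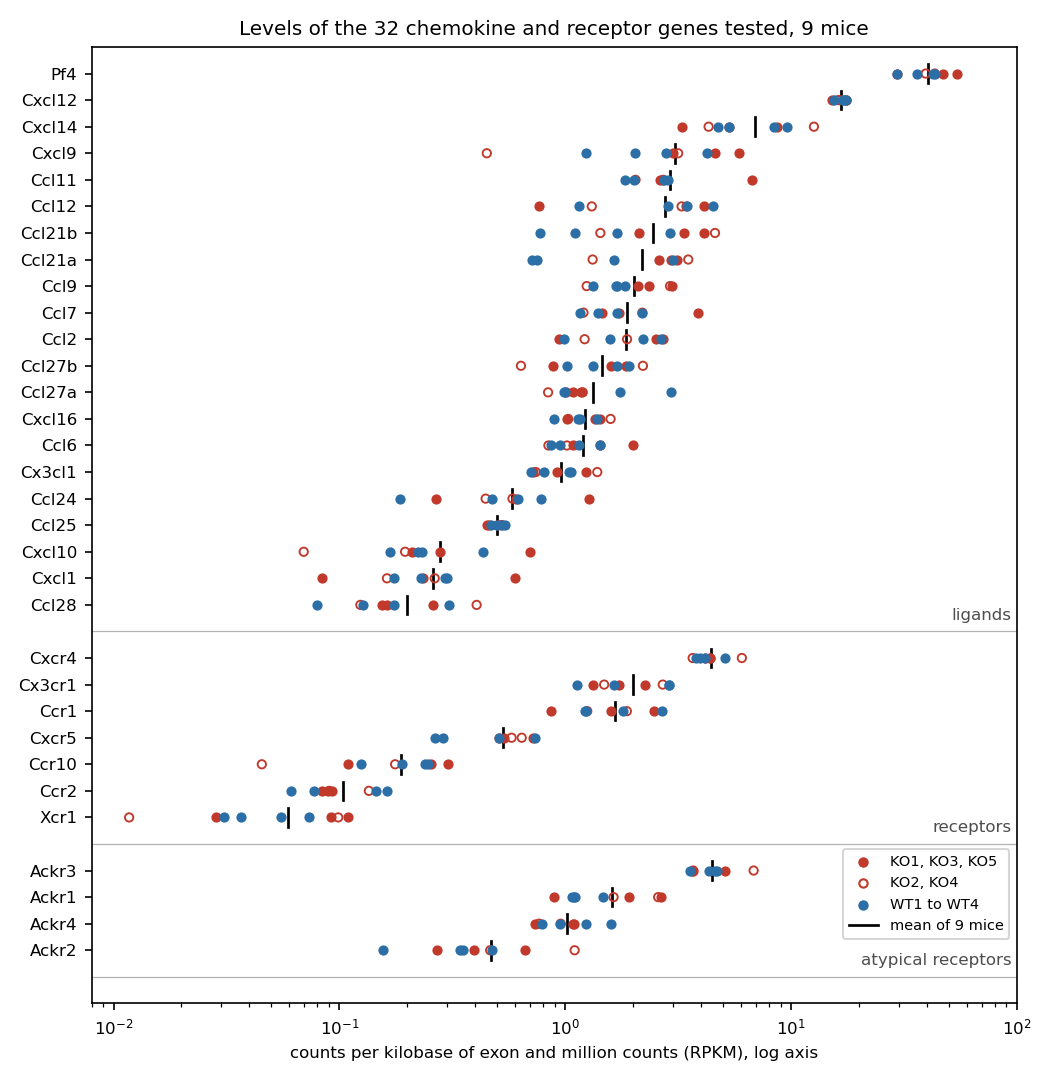
Level of each of the 32 members tested, in RPKM on a log axis, grouped as ligands, receptors and atypical receptors and ordered by mean. Each point is a mouse (filled red KO1, KO3 and KO5, open red KO2 and KO4, blue WT) and the black tick is the mean of 9 mice, and the mice of either genotype overlap for most genes, with Pf4 and Cxcl12 at the top.

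The neighbours within a gene cluster differed widely in level. In the cluster on chromosome 5 from 90759360 to 90905938 (mm10), Pf4 averaged 40.6 RPKM, while Cxcl1 averaged 0.260, Cxcl5 0.0389, Cxcl2 0.0265 and Cxcl15 0.00309 RPKM, and Cxcl3 had 0 counts. In the nearby cluster of Cxcl9, Cxcl10 and Cxcl11, from 92321347 to 92365485, the means were 3.05, 0.279 and 0.0448 RPKM. On chromosome 11, 4 of the 6 genes from Ccl2 to Ccl1 (82035571 to 82305690) reached 1 CPM, and of the 5 genes from Ccl5 to Ccl4 (83525778 to 83664683) Ccl9 and Ccl6 did, with means of 2.02 and 1.19 RPKM, while Ccl3, Ccl4 and Ccl5 stayed at 0.0813 RPKM or less. Of 7 receptor genes on chromosome 9 between 123678439 and 124147699, Ccr1 alone reached 1 CPM, at 4.73 CPM (1.67 RPKM).

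The edgeR filter on low counts (minimum count 10, minimum total 15) passed 32 members, of which 21 were ligands, 7 receptors and 4 atypical receptors. The lowest mean among them was 0.265 CPM (Xcr1), and 25 members with counts did not pass. In the main comparison, 22 of the 32 had a log2 fold change (KO over WT) above 0 and 10 below. Their median was 0.16, against -0.01 for all 21809 genes tested. The median size without sign was 0.28, against 0.10 for all genes, and 10 members reached 0.5 and 0 reached 1. No member met p below 0.05 with FDR below 25%, and neither did any other gene (0% of genes tested). At an unadjusted p below 0.05 in edgeR's quasi-likelihood test there were 3 of 32 members, against 2.08% of all genes, and each was a ligand that was higher in KO (1.16% of all genes in this direction). They were Ccl9, Ccl11 and Ccl21b. With all 9 mice, 4 members had an unadjusted p below 0.05 (2.03% of all genes), namely Ackr1, Ccl9 and Ccl21b on the higher side (1.16% of all genes) and Ccl27a on the lower, and again 0 were called (0% of genes). In that fit 21 members were higher and 11 lower, and the median was 0.14. The lowest FDR of a member was 1.00 after rounding in either fit. By DESeq2, 5 members had p below 0.05 (1.80% of all genes) and 0 were called (0.0275% of all genes). The 2 comparisons share the WT mice and the 3 KO mice, so they are not independent of each other.

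**Figure D2:**
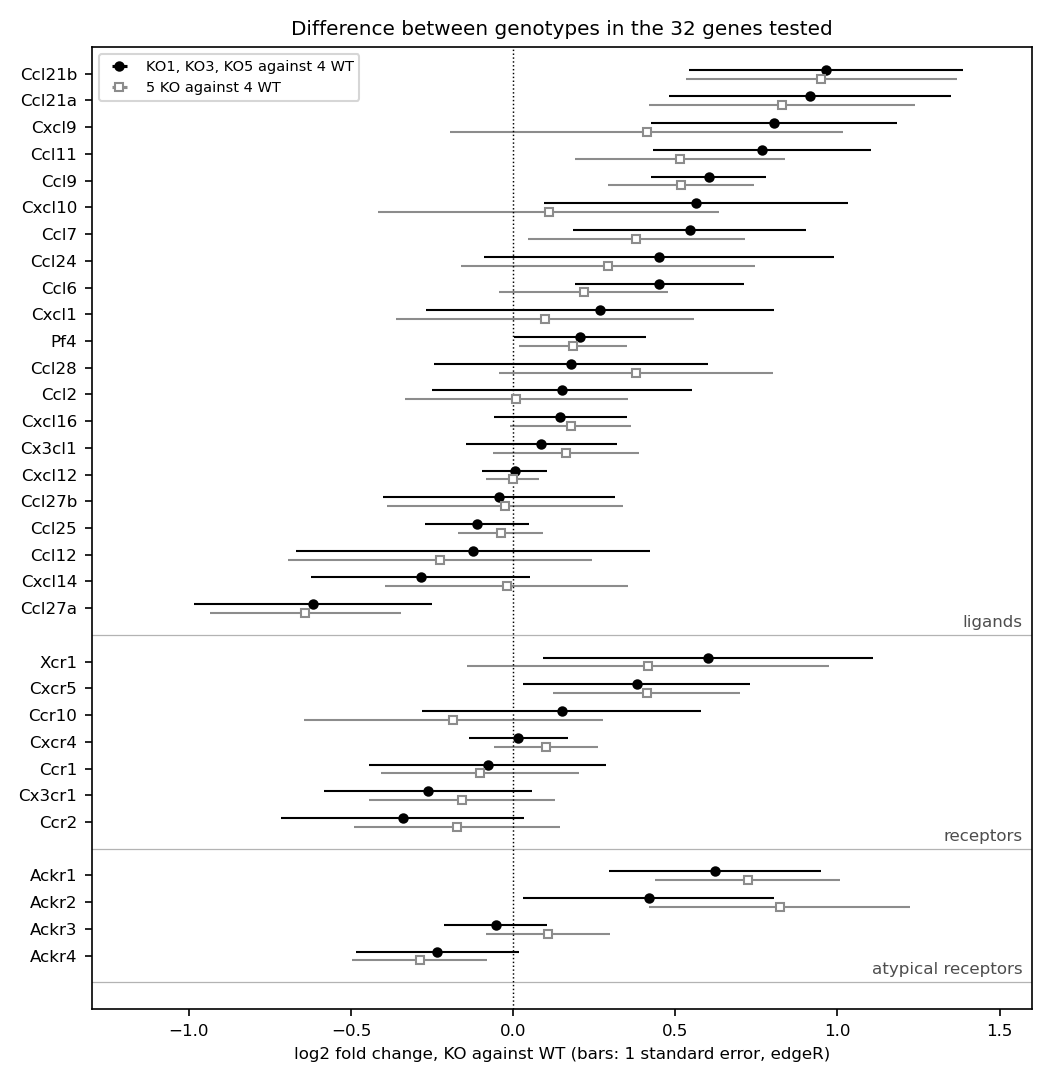
Log2 fold change of KO over WT in edgeR for the 32 members tested, with bars of 1 standard error. Black circles stand for KO1, KO3 and KO5 against 4 WT and grey squares for 5 KO against 4 WT, and Ccl21b, at 0.96, was the highest member while Ccl27a, at -0.62, was the lowest.

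Ccl9 (ENSMUSG00000019122, chromosome 11 from 83572919 to 83578636), a ligand of Ccr1 made by myeloid cells, was the member with the smallest p in the main comparison, and Ackr1 in all 9 mice. Ccl9 was counted at 9.10 CPM in KO1, 7.18 in KO3 and 6.38 in KO5, and at 5.15, 4.05, 5.09 and 5.61 CPM in WT1 to WT4. The 3 KO mice lay above every WT mouse, as they did in 1.40% of all genes tested, and Ccl9 was the only member of the 32 for which they did. No member had all 3 KO mice below every WT mouse (1.44% of all genes). The log2 fold change was 0.60 (standard error 0.18, p = 0.0063 and FDR = 1.00 in edgeR), and the 2-sided exact permutation test on log2 CPM gave p = 0.0286, the smallest that 3 against 4 mice allow. KO4, at 8.87 CPM, was also above every WT mouse, but KO2, at 3.79 CPM, was the lowest of all 9. With both included the log2 fold change was 0.52 (standard error 0.22, edgeR p = 0.0390, FDR = 1.00) and the exact permutation test gave p = 0.135.
Among mice with high Xist, KO3 and KO5 were above WT3 and WT4, and among those with low Xist KO1 was above WT1 and WT2 while KO2 was below them. The unadjusted p of Ccl9 was below 0.05 in each of 17 alternative fits (0.00221 to 0.0390). The 10 macrophage markers summed to 256, 192 and 251 CPM in KO1, KO3 and KO5 and to 194 to 248 CPM in WT, so their ranges overlapped, and their part in the Ccl9 difference was not tested. In bulk RNA, fewer cells of a type and less RNA per cell cannot be told apart. The neighbouring gene Ccl6, a related ligand of Ccr1, differed by 0.45 on the same log2 scale (standard error 0.26, p = 0.111 in edgeR, exact permutation test p = 0.229). Its values were 3.58, 1.95 and 2.55 CPM in KO1, KO3 and KO5 and 1.55 to 2.56 CPM in WT.

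Ccl21a and Ccl21b encode the lymphatic chemokine that draws dendritic and T cells through Ccr7. Ccl21b was counted at 1.35, 0.851 and 1.65 CPM in KO1, KO3 and KO5, and at 1.17, 0.444, 0.310 and 0.685 CPM in WT1 to WT4. KO2 had 0.576 and KO4, at 1.85 CPM, was the highest mouse. WT1 lay among the KO mice, and the genotypes overlapped. The log2 fold change was 0.96 (standard error 0.42, p = 0.0442, FDR = 1.00 in edgeR), and the exact permutation test gave p = 0.114. In all 9 mice it was 0.95 (standard error 0.42, edgeR p = 0.0414, exact permutation test p = 0.111). The unadjusted p was above 0.05 without KO1, KO5, WT2, WT3 or WT4 (0.0668 to 0.158).
Ccl21a was counted at 2.73, 2.27 and 2.55 CPM in the 3 KO mice and at 2.62, 0.651, 0.620 and 1.44 CPM in WT1 to WT4, with KO2 at 1.152 and KO4 at 3.05 CPM. Its log2 fold change was 0.92 (standard error 0.43, p = 0.0604, FDR = 1.00 in edgeR, exact permutation test p = 0.143). Without WT1 it was 1.48, with an unadjusted p below 0.05 in edgeR, as also by DESeq2 and by limma-voom. In edgeR the p was also below 0.05 with the Xist covariate in the 7 mice and with the replicate block in all 9.
These loci cannot be counted apart with certainty. All 31-base stretches of the Ccl21b exons recur in the copies Gm10591, Gm13304 and Gm21541, and 80.6% of those of Ccl21a recur in Gm21541. Ccl21b and its copies had similar total counts, at 285, 285, 262 and 252. The 5 loci together gave 7.403, 6.46 and 8.55 CPM in KO1, KO3 and KO5, 3.29 in KO2, 10.02 in KO4, and 6.75, 1.98, 2.03 and 4.44 CPM in WT1 to WT4. WT1 again lay above KO3. How reads with several matches were counted is not stated, so this sum may hold the same reads more than once. Of 6 lymphatic endothelial markers, 4 were higher and 2 lower in the 3 KO mice, and their sum was 145 to 148 CPM in KO and 119 to 150 CPM in WT. Among them Mmrn1, a lymphatic matrix protein, was at 7.15, 6.99 and 5.74 CPM in KO1, KO3 and KO5 and at 6.78, 1.80, 3.03 and 2.77 CPM in WT1 to WT4 (log2 fold change 0.88, p = 0.0345, FDR = 1.00 in edgeR, exact permutation test p = 0.0857). Of the 6 markers Mmrn1 alone had an unadjusted p below 0.05 in edgeR, as did 2.08% of all genes tested. WT1 was the highest WT mouse for Mmrn1 as for the Ccl21 loci. For the sum of the 6 markers it was WT4, at 150 CPM, against 147 CPM in WT1. The part of lymphatic content in the Ccl21 values was not tested. The receptor Ccr7 was too low for the test, at a mean of 0.107 CPM (0 to 0.228 CPM), and so was its other ligand Ccl19, at 0.146 CPM (0.0326 to 0.235 CPM).

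Ccl11, the eotaxin that draws eosinophils, owed its higher mean to 1 mouse. It was counted at 2.95, 2.84 and 7.28 CPM in KO1, KO3 and KO5, and at 2.96, 2.19, 3.10 and 1.99 CPM in WT1 to WT4. KO2 (2.95 CPM) and KO4 (2.22 CPM) lay within the WT range, so KO5 alone stood above it. The log2 fold change was 0.77 (standard error 0.34, p = 0.0440, FDR = 1.00 in edgeR, exact permutation test p = 0.257). Without KO5 it was 0.17. In all 9 mice it was 0.51 (edgeR p = 0.136, exact permutation test p = 0.365). The unadjusted p in edgeR was also above 0.05 without WT2 or WT4. KO5 was the mouse with the high adipocyte and Schwann cell markers, and their part in its Ccl11 level was not tested. The receptor Ccr3 had 10 counts in 9 mice, a mean of 0.0335 CPM.

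**Figure D3:**
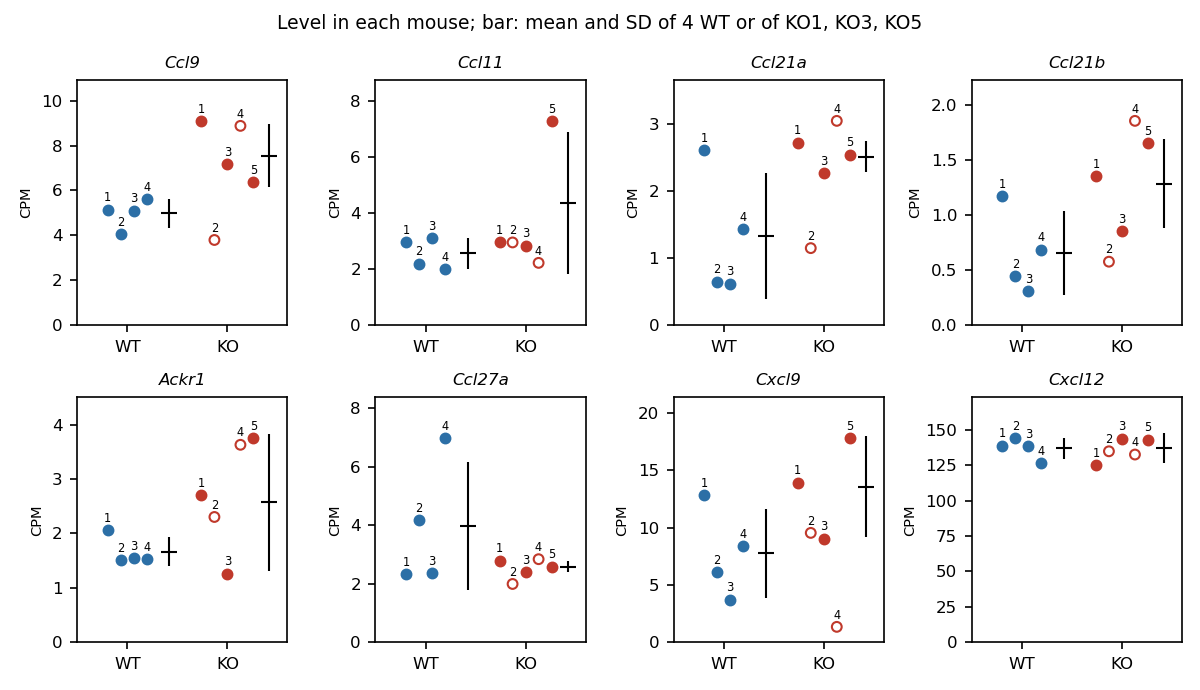
CPM in each mouse for the 5 members with an unadjusted p below 0.05 in either fit, and for Ccl21a, Cxcl9 and Cxcl12. Points are mice, numbered (blue WT, filled red KO1, KO3 and KO5, open red KO2 and KO4), bars give mean and SD of 4 WT or of KO1, KO3 and KO5, and for Ccl9 every filled red point lies above every blue point.

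Cxcl9, Cxcl10 and Cxcl11 are the interferon-inducible ligands of Cxcr3, the receptor of activated T and NK cells. Of the 32 members tested Cxcl9 was the most variable by ratio, with its highest mouse 13.1 times its lowest. It was at 13.9, 9.04 and 17.8 CPM in KO1, KO3 and KO5, 9.55 in KO2 and 1.36 in KO4, and at 12.8, 6.15, 3.72 and 8.42 CPM in WT1 to WT4. KO mice therefore held both the highest and the lowest value. Its log2 fold change was 0.80 in the main comparison (standard error 0.38, p = 0.0625, FDR = 1.00 in edgeR, exact permutation test p = 0.114), and 0.41 in all 9 mice (standard error 0.60, p = 0.513, exact p = 0.857). The unadjusted p was below 0.05 in 4 of 17 alternative fits, namely DESeq2, limma-voom and edgeR without KO3 or without WT1. Cxcl10 was at 0.471, 0.440, 0.630, 0.157 and 1.58 CPM in KO1 to KO5 and at 0.524, 0.503, 0.379 and 0.979 CPM in WT1 to WT4. For Cxcl10 as for Cxcl9, KO5 was highest and KO4 lowest, and the log2 fold change was 0.56 (standard error 0.47, p = 0.256 in edgeR, exact permutation test p = 0.457). Without KO5 the value for Cxcl10 was -0.12. Cxcl11 had 46 counts in all, a mean of 0.170 CPM, and 41.7% of its exon length overlaps Gm2673 on the other strand. It is a polymorphic pseudogene in the annotation of C57BL/6. Cxcr3 had a mean of 0.192 CPM (0.0344 to 0.508 CPM). The 26 interferon-stimulated genes examined beside them summed to 184, 260 and 154 CPM in KO1, KO3 and KO5, 146 in KO2, 240 in KO4, and 164 to 183 CPM in WT. KO3 and KO4 had the highest sums. The part of these genes' levels in the Cxcl9 values was not tested. Of these 26 genes, 23 were higher and 3 lower in KO, and Mx2 alone had p below 0.05 in edgeR, as did 2.08% of all genes tested (log2 fold change 1.01, p = 0.0212, FDR = 1.00, exact permutation test p = 0.0571). In all 9 mice 0 of the 26 had p below 0.05 in edgeR (2.03% of all genes), and Mx2 was at 0.82 (p = 0.0671, exact permutation test p = 0.270).

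Cxcl12, the ligand of Cxcr4 and Ackr3 that retains stem and progenitor cells, was the steadiest member. Its values were 125, 135, 144, 132 and 143 CPM in KO1 to KO5 and 139, 144, 138 and 126.4 CPM in WT1 to WT4, a coefficient of variation of 5.27% over the 9 mice. The genotypes overlapped throughout, and the log2 fold change was 0.00 (standard error 0.10, p = 0.965 in edgeR, exact permutation test p = 1.00). Its signalling receptor Cxcr4 was at 7.56, 7.91 and 7.91 CPM in KO1, KO3 and KO5 and at 6.87, 9.26, 7.16 and 7.54 CPM in WT1 to WT4, and its log2 fold change was 0.02 (standard error 0.15, p = 0.918 in edgeR, exact permutation test p = 0.857). KO4, at 11.0 CPM, was the highest mouse. The scavenging receptor Ackr3 was at 17.1, 12.3 and 12.2 CPM in the 3 KO mice and at 11.9 to 15.7 CPM in WT, and its log2 fold change was -0.05 (standard error 0.16, p = 0.741 in edgeR, exact permutation test p = 0.714). KO4 was again highest at 22.9 CPM.

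Pf4, platelet factor 4, is made by megakaryocytes and also by tissue macrophages. It was counted at 39.3, 28.5, 21.4, 31.2 and 34.0 CPM in KO1 to KO5 and at 31.4, 26.1, 21.3 and 30.5 CPM in WT1 to WT4. KO1 was highest and WT3 and KO3 lowest, and the genotypes overlapped (log2 fold change 0.21, standard error 0.20, p = 0.334 in edgeR, exact permutation test p = 0.486). Without KO3 the value was 0.42, with an unadjusted edgeR p below 0.05, and without KO1 it was 0.02. The 7 platelet and megakaryocyte markers summed to 8.49 to 14.3 CPM over all mice, with Treml1 and Gp9 below 0.1 CPM, and Ppbp, the neighbouring platelet chemokine, averaged 1.34 CPM. The 10 macrophage markers summed to 192 to 279 CPM, with Mrc1 highest at 73.8 CPM.

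Cxcl14, a chemokine of epithelia and connective tissue, had values of 15.8, 9.77 and 6.00 CPM in KO1, KO3 and KO5, 7.89 in KO2, 23.1 in KO4, and 17.5, 9.67, 8.67 and 15.4 CPM in WT1 to WT4. KO mice held both the lowest and the highest value, and the log2 fold change was -0.28 (standard error 0.34, p = 0.419 in edgeR, exact permutation test p = 0.600). Ccl27a, a chemokine known from skin, had the lowest log2 fold change, -0.62 (standard error 0.37, p = 0.121, FDR = 1.00 in edgeR, exact permutation test p = 0.429). In all 9 mice it was -0.64 (standard error 0.29, p = 0.0497 in edgeR, exact permutation test p = 0.214). It was counted at 2.79, 2.00, 2.39, 2.85 and 2.59 CPM in KO1 to KO5 and at 2.34, 4.17, 2.38 and 6.98 CPM in WT1 to WT4. WT4 and WT2 were high, and WT1 and WT3 lay within the range of KO. Without WT4 the log2 fold change was -0.19. WT4 also had the most of the 6 keratinocyte markers, 53.2 CPM in sum, against 6.43 to 24.8 CPM in the other mice, and their part in the Ccl27a value was not tested. Of the 31-base stretches of Ccl27a, 57.0% recur elsewhere, mainly in Gm20878 and Gm13306, so its count is uncertain, and that of Ccl27b, whose exons are wholly shared, more so.

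The monocyte-drawing ligands Ccl2, Ccl7 and Ccl12, which lie in 1 cluster on chromosome 11, were at 1.07 to 3.07, 0.929 to 3.11 and 0.410 to 2.43 CPM over all mice. Ccl2 was counted at 3.07, 1.39, 1.07, 2.14 and 2.89 CPM in KO1 to KO5 and at 3.02, 1.12, 1.79 and 2.51 CPM in WT1 to WT4. Its log2 fold change was 0.15 (standard error 0.40, exact permutation test p = 0.800), that of Ccl7 0.54 (standard error 0.36, exact p = 0.343) and that of Ccl12 -0.12 (standard error 0.55, exact p = 0.629). KO3 was the lowest mouse for Ccl2 and for Ccl12, at 0.410 CPM, where WT1 was highest at 2.43 CPM. Their receptor Ccr2 averaged 0.104 RPKM over the 9 mice, against 1.86, 1.88 and 2.77 RPKM for Ccl2, Ccl7 and Ccl12. It was counted at 0.627, 0.567 and 0.600 CPM in KO1, KO3 and KO5, 0.610 in KO2, 0.914 in KO4, and 0.986, 1.09, 0.413 and 0.522 CPM in WT1 to WT4. Its log2 fold change of -0.34 was the lowest of the receptors (standard error 0.38, exact permutation test p = 0.543).

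The neutrophil ligands were scarce. Cxcl1 averaged 0.488 CPM, at 0.439, 0.158 and 1.13 CPM in KO1, KO3 and KO5 and at 0.326 to 0.562 CPM in WT, and its log2 fold change was 0.27 (standard error 0.54, exact permutation test p = 1.00). Without KO5 this was -0.65. Cxcl2 averaged 0.0548 CPM and their receptor Cxcr2 0.205 CPM. Of 9 neutrophil markers, Ly6g and Elane were below 0.1 CPM, and the sum over the list was 3.15 to 14.6 CPM in KO1, KO3 and KO5 and 5.99 to 16.8 CPM in WT. Of the 6 markers tested, 5 were lower and 1 higher in KO, with a median log2 fold change of -0.50. Ngp, a granule protein of neutrophil precursors, alone had p below 0.05 in edgeR (2.08% of all genes), with -1.38 in 7 mice (p = 0.0153, FDR = 1.00, exact permutation test p = 0.0857) and -1.302 in 9 (p = 0.00451, exact p = 0.0397). The part of these cells in the Cxcl1 values was not tested.

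Cx3cl1, the membrane-bound chemokine of neurons and endothelium, was at 2.82, 2.91, 4.88, 5.46 and 3.60 CPM in KO1 to KO5 and at 2.77, 3.17, 4.10 and 4.18 CPM in WT1 to WT4 (log2 fold change 0.09, standard error 0.23, exact permutation test p = 0.771). Its receptor Cx3cr1, found on macrophages and monocytes, was the receptor with the most counts. It was at 7.84, 12.2, 5.99, 6.71 and 10.2 CPM in KO1 to KO5 and at 13.002, 12.9, 7.401 and 5.09 CPM in WT1 to WT4. WT mice held both the highest and the lowest value, and the log2 fold change was -0.26 (standard error 0.32, exact permutation test p = 0.657). Ccr1, the receptor of Ccl9 and Ccl6, was at 7.03, 2.46 and 4.50 CPM in KO1, KO3 and KO5 and at 3.48 to 7.64 CPM in WT, and its log2 fold change was -0.08 (standard error 0.37, exact permutation test p = 0.800).
Of the 7 receptors tested, 4 were higher and 3 lower in KO, the range being -0.34 for Ccr2 to 0.60 for Xcr1, the receptor of cross-presenting dendritic cells. With genotype as the single term, none had an unadjusted edgeR p below 0.05, in 7 or in 9 mice (2.08% and 2.03% of all genes). Xcr1 rested on 73 counts and Ccr10 on 89. Cxcr5, the receptor gene of follicular B cells, was at a mean of 1.77 CPM, and the 5 B cell markers summed to 0.630 to 2.85 CPM over all mice, with 0 of them below 0.1 CPM on average. The 9 T and NK cell markers summed to 4.89 to 7.84 CPM in KO1, KO3 and KO5 and to 3.00 to 5.55 CPM in WT, with Cd3e highest at a mean of 3.14 CPM and Cd3d, Cd3g, Cd8a and Ncr1 below 0.1 CPM.

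The atypical receptors were all detected in every mouse. Ackr1, which binds inflammatory chemokines on venular endothelium and red cells, was at 2.70, 1.26 and 3.75 CPM in KO1, KO3 and KO5, with KO2 at 2.30 and KO4 at 3.63 CPM, and at 2.06, 1.51, 1.55 and 1.53 CPM in WT1 to WT4. Of the 5 KO mice 4 lay above every WT mouse, and KO3 lay below every one. The log2 fold change was 0.62 (standard error 0.33, p = 0.0836, exact permutation test p = 0.257) in the main comparison and 0.72 (standard error 0.29, p = 0.0258, exact permutation test p = 0.111) in all 9 mice, with FDR = 1.00 in edgeR in each. Without KO5 the main value was 0.24, and without KO3 0.96. The 5 erythroid markers summed to 3378 CPM in KO1 and to 696 to 1288 CPM in the other mice, and their part in the Ackr1 values was not tested. Ackr1 shares 25.7% of its exon length with Cadm3 on the same strand, so reads there cannot be assigned with certainty. Cadm3 was at 7.03, 6.05 and 7.95 CPM in the 3 KO mice and at 6.90, 4.29, 5.58 and 5.81 CPM in WT1 to WT4, and was highest in KO4 at 10.6 and KO2 at 8.03 CPM. The 8 endothelial markers summed to 843 to 879 CPM in KO1, KO3 and KO5, 684 CPM in KO2, 974 CPM in KO4 and 746 to 845 CPM in WT, and the part of these genes in the Ackr1 values was not tested.
Ackr2, a scavenger of inflammatory Ccl ligands in lymphatic vessels, was at 2.07, 1.46, 0.851, 3.45 and 1.24 CPM in KO1 to KO5 and at 1.11, 1.48, 1.07 and 0.490 CPM in WT1 to WT4. KO4 was high and WT4 low, and the log2 fold change was 0.42 (standard error 0.39, p = 0.306 in edgeR, exact permutation test p = 0.457) in 7 mice and 0.82 (standard error 0.40, p = 0.0627, exact p = 0.190) in 9. Without KO1 the value in 7 mice was 0.0091, and without WT4 0.19. Ackr4, the scavenger of Ccl19, Ccl21 and Ccl25, was at 5.87, 4.13, 5.86, 5.14 and 3.94 CPM in KO1 to KO5 and at 5.11, 4.26, 6.68 and 8.55 CPM in WT1 to WT4 (log2 fold change -0.23, standard error 0.25, exact permutation test p = 0.543). Without WT4 the value was -0.03, and without WT2 -0.38. Ccl25, the ligand of Ccr9 and Ackr4, was nearly as steady as Cxcl12, at 3.36 to 4.03 CPM over all mice with a log2 fold change of -0.11.

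The mouse with the highest or lowest value differed between members. KO4 was the highest mouse in 9 of the 32 members (28.1%, against 14.2% of all genes tested) and the lowest in 5 (15.6%, against 15.3%). KO5 was the highest in 8 (25%, against 12.7% of all genes), among them Ccl11, Ccl24, Cxcl1, Cxcl9, Cxcl10 and Ackr1. KO1 was the highest in 5 (15.6%, against 9.25%), namely Ccl2, Ccl6, Ccl7, Ccl9 and Pf4. KO3 was the highest in 0 (against 8.43%) and the lowest in 5 (15.6%, against 6.55%). The 4 WT mice were together the highest in 9 members (28.1%, against 44.7% of all genes). Over the 32 members the median coefficient of variation between the 9 mice was 39.7%, and the median ratio of the highest to the lowest mouse was 3.23.

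**Figure D4:**
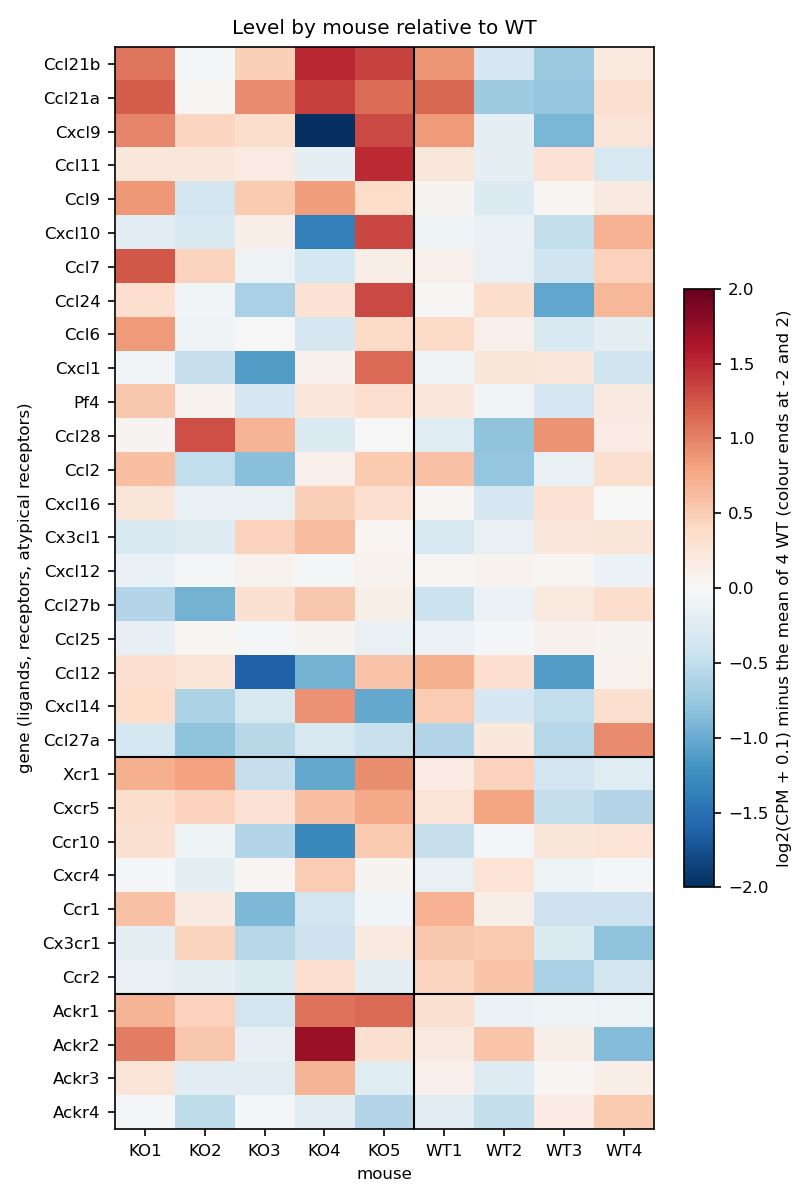
Level of the 32 members tested in each mouse, as log2(CPM + 0.1) minus the mean of the 4 WT mice, with red above and blue below that mean. Rows are ordered within ligands, receptors and atypical receptors by log2 fold change, and the colour ends at -2 and 2, beyond which 1 value lies (Cxcl9 in KO4, -2.30).

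The genes that act with chemokines were taken from a list of 48, which held G protein subunits, arrestins, regulators of G protein signalling, small GTPases, proteases and glycosaminoglycan carriers. Of the 47 tested, 25 had a higher and 22 a lower mean in the 3 KO mice. Their median log2 fold change was 0.00, and 3 had an unadjusted p below 0.05, as did 2.08% of all genes tested. Rac2, the small GTPase of blood cells that acts in chemokine-driven migration, was at 8.94, 7.86, 7.81, 7.44 and 10.1 CPM in KO1 to KO5 and at 6.72, 4.29, 5.34 and 6.10 CPM in WT1 to WT4. All 5 KO mice lay above every WT mouse, as in 0.271% of all genes tested. Its log2 fold change was 0.68 (standard error 0.18, p = 0.00375, FDR = 1.00 in edgeR, exact permutation test p = 0.0286) in the main comparison and 0.60 (p = 0.00237, exact p = 0.00794) in all 9 mice, and these exact p-values are the smallest possible. On the lower side were Rgs16, a regulator of G protein signalling (log2 fold change -0.38, p = 0.0177 in edgeR), and Cmklr1, the chemerin receptor (-0.35, p = 0.0333 in edgeR), each with an exact permutation p of 0.0286. In 9 mice the exact permutation p was 0.0635 for Rgs16 and 0.230 for Cmklr1, and Sdc4, a chemokine-binding syndecan, had a log2 fold change of 0.22 (p = 0.0446 in edgeR, exact permutation test p = 0.0317). Gnai2, the main inhibitory G protein of leukocytes, averaged 306.5 CPM with a log2 fold change of 0.00, and Arrb2, an arrestin, 14.4 CPM with 0.11. Dpp4, a protease that trims chemokines, had a log2 fold change of 0.11, the decoy receptor Ccrl2 -0.09 and Ppbp -0.31. Of 21 cytokine and NF-κB genes that induce or share the control of chemokines, 15 were tested, 11 were higher and 4 lower. None had p below 0.05 in edgeR, against 2.08% of all genes tested. Ifng, Il17a, Il1b and Lta were each below 0.1 CPM.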

How the data were processed

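Bulk RNA-seq of the gastrocnemius was analysed in 5 KO and 4 WT mice, 1 library per mouse. The counts, as deposited by the authors, are numbers of reads per Ensembl gene. The reads were mapped to mm10 with HISAT2, concordant reads were kept, and featureCounts was used for counting. The sources used here do not state how strand and multiple matches were counted, so antisense, overlapping and duplicated genes are uncertain. The table held 0 columns without a sample.

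Symbols, positions and exon lengths came from GENCODE M21. Symbols were found for 55144 of 55471 IDs. CPM used TMM factors. RPKM divided CPM by the union of exons. Promoters were those of RefSeq (GRCm38.p6), without the bases after the gene start. Sequence shared between genes was measured on annotated transcripts by stretches of 31 bases.

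KO1, KO3 and KO5 were compared with WT1 to WT4, the mice of the published comparison, and all 9 mice were fitted beside. The published analysis used limma. Here edgeR 4.0.16 (R 4.3.3) was used with filterByExpr, TMM and a 2-sided quasi-likelihood test, with Benjamini-Hochberg adjustment (FDR) over all genes tested, 21809 in 7 mice and 21735 in 9. A call needed p below 0.05 and FDR below 25%. For single genes an exact permutation test of mean log2 CPM (prior count 2) ran over the 35 or 126 splits of the mice. The smallest p it can give is 0.0286 or 0.00794. The scripts were tested on simulated data. Alternatives were other scalings, no filter, DESeq2 1.42.0, limma-voom (limma 3.58.1), the replicate number as a block, Xist as a covariate, and each mouse left out. Nothing in the labels says that the mice came from separate litters, so p-values measure the spread between these mice. Marker and pathway lists were written from general knowledge. The members and lists were chosen with earlier results of these data known. Named genes were the 10 members of highest mean RPKM, those with p below 0.05 in either fit, the 3 largest log2 fold changes in each direction, fixed ligand and receptor pairs, Pf4, Cxcl14 and the 4 Ackr genes. Ccl6, Ccl7, Ccr1, Ccl25, Cxcr5, Xcr1 and further members given by single values were added after their values were seen. Python 3.11.15 with matplotlib 3.10.9 made the figures. A few single genes are not reported here.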

Additional observations from a re-analysis of the deposited data

Results flagged for a closer look

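Of 42 sets of 4 or 5 mice of a genotype examined for a mouse far from the others, 3 had such a mouse, where chance gives about 1 in 20. Ackr1 was at 2.06 CPM in WT1, against 1.51 to 1.55 CPM in the other WT mice. Ccl11 was at 7.28 CPM in KO5, against 2.22 to 2.95 CPM in the other KO mice. Ccr2 was at 0.914 CPM in KO4, against 0.567 to 0.627 CPM in the other KO mice.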

How the results depend on the processing

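No member was called in any of 17 alternative fits, and the lowest FDR of a member over them was 0.940. The number of members with p below 0.05, 3 in the main comparison, was 5 without the filter and 5 by DESeq2, and ranged from 1 (without KO5 or WT4) to 7 (without KO3) when single mice were left out. It was 6 without WT1. The number of all genes with p below 0.05, 453, was 972 without the filter, 224 without KO5, 968 without KO1 and 794 without KO3. It was 406 without WT1, 451 without WT4 and 393 by DESeq2. Calls among all genes reached 15 without KO1 and 6 by DESeq2. The number of expressed members, 23, was 41 at a mean of 0.1 CPM. The median log2 fold change of 0.16 ranged from 0.032 to 0.42 when single mice were left out, highest without KO3. With the replicate number as a block, 3 members had p below 0.05 in 7 mice and 3 in 9, and 844 of all genes in 7 mice, of which 9 were called. In 7 mice Cx3cr1 was among these 3 members, at -0.53, and Ackr1 was at 0.08. The labels do not say whether the number marks a pairing, and the correlations do not settle it. In 9 mice same-numbered mice correlated at 0.37, 0.05, 0.36 and 0.10, and KO2, WT2 and WT4 correlated best with another number. KO1, KO3 and KO4 correlated best with their own number, and so did WT1 and WT3. In 7 mice KO1 and WT1 (0.38) were the best match of each other, as were KO3 and WT3 (0.36). Of 357 gene alternatives 40 turned the direction, in 13 of 21 tested named genes, and the cause was not tested. In all 9 mice these were Ackr3 (0.11) and Cxcl12 (-0.0020). With the block in 7 mice they were Ackr4 (0.0032), Ccl11 (-0.065), Ccl2 (-0.29), Ccl27a (0.14), Cxcl1 (-0.73), Cxcl12 (-0.0486) and Cxcl14 (0.0020), and in 9 mice Ackr3 (0.14), Ccl2 (-0.15), Cxcl1 (-0.42), Cxcl10 (-0.50), Cxcl12 (-0.0245), Cxcl14 (0.092) and Cxcl9 (-0.0132). With the Xist covariate they were Ccl12 (0.0706), Cx3cl1 (-0.0167) and Cxcl12 (-0.0034) in 7 mice and Ackr3 (0.0966) and Cxcl12 (-0.0022) in 9. Cxcl1 was -0.13 by limma-voom and Cxcl12 -0.0122 without scaling factors. Leaving out single mice gave log2 fold changes from -0.23 to 0.0269 for Ackr3, -0.53 to 0.33 for Ccl12, -0.0927 to 0.50 for Ccl2, -0.14 to 0.26 for Cx3cl1, -0.65 to 0.73 for Cxcl1, -0.12 to 0.91 for Cxcl10, -0.0364 to 0.0722 for Cxcl12 and -0.0303 to 0.12 for Cxcr4. Without a turn in direction, they ranged from 0.02 to 0.42 for Pf4, 0.0091 to 0.68 for Ackr2, -0.38 to -0.03 for Ackr4, 0.68 to 1.48 for Ccl21a, 0.55 to 1.16 for Cxcl9, -0.69 to -0.01 for Cxcl14, -0.53 to -0.10 for Ccr2 and -0.48 to -0.08 for Cx3cr1. With 3 against 4 mice the standard errors of the tested members, 0.10 to 0.55, limit what could be detected, and members under about 10 counts a mouse were not tested.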
